A study of Mus musculus with 31 samples.

Results

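Interferon-stimulated genes are the genes a cell switches on once an interferon has bound its receptor. The 45 genes described here form a list of names that was drawn up with earlier results of these data known, and all 45 were found by symbol or Ensembl identifier in each of 3 gene count tables, which together list 60172 genes. RNA was sequenced from 31 samples of cells that the study names as Panc02, a mouse pancreatic adenocarcinoma line. In the conditioned-medium experiment, WT Panc02 spheroids in Matrigel were grown with control medium (Ctrl), with medium conditioned by untreated macrophages (M0-CM) or with medium conditioned by macrophages given IFNγ and lipopolysaccharide (M1-CM), with 3 samples a group. In the culture experiment, WT and Cxcl5-/- cells were grown as flat 2D cultures or as 3D spheroids in Matrigel, with 3 samples in each of the 4 groups (2D WT, 2D Cxcl5-/-, 3D WT and 3D Cxcl5-/-). In the rescue experiment all cells were grown in 3D: WT (n = 2), Cxcl5-/- (n = 2), Cxcl5-/- cells overexpressing Hif1a (Hif1aOE Cxcl5-/-, n = 3) and Cxcl5-/- cells overexpressing Myc (MycOE Cxcl5-/-, n = 3).

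Some features of these groups limit what they model. Cxcl5 was deleted with a lentiviral CRISPR vector and puromycin selection, and the sources used here name neither a vector-only control nor whether the line is 1 clone or a pool. Both overexpressed genes came from retroviral vectors put into Cxcl5-/- cells, and the Hif1a used was a stabilised mutant. Both conditioned media held L929 supernatant from the macrophage culture, which the Ctrl medium did not, and the M1 macrophages were washed before their medium was collected. The labels of the rescue libraries name a different cell line number for each of the 10 libraries, and the numbers run on from library to library. The study names Panc02, and whether these are separate lines was not tested. The labels do not say that samples of a group are separate cultures, and the statement in the methods that experiments used biological replicates does not name the sequencing. If they are not, the p-values measure only the spread between these samples, which may be technical.

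Interferons bind receptor pairs (IFNAR for type I, IFNGR for type II, IFNLR with IL10RB for type III) and activate Janus kinases, which phosphorylate STAT proteins. A complex that holds STAT2 and IRF9 binds the interferon-stimulated response element in promoters, whereas STAT dimers bind the gamma-activated site. The products include sensors of foreign RNA and DNA, proteins that block viral replication and translation, GTPases directed against intracellular microbes, and regulators such as IRF7 that raise interferon production further. In tumor cells these genes are also known to be expressed without infection.

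The core of the response element, searched as a pair of GAAA tetramers with any 2 bases between them, was looked for on both strands from 250 bases before to 50 bases after the annotated start of each gene, since it is the sequence by which these genes are usually grouped. RefSeq promoter windows (GRCm38.p6) matched 35 of the 45 members. The core was present in 19 of these 35 (54.3%) and in 3.99% of the 27025 gene symbols with a window. The gamma-activated site, written TTCNNNGAA, was present in 11 of 35 (31.4%) and in 9.55% of all symbols. Both motifs were present in 7 members and neither in 12, and a match here is a match of letters and not a measured binding site. The 170 bases before the start are printed for 6 members whose results are described below, 4 with the core, in capitals as it reads on the gene's strand (a pair of TTTC tetramers where the core lies on the other strand), and 2 without it. They lie at chr19:34640719-34640888 (Ifit1, plus strand), chr19:34583359-34583528 (Ifit3, plus), chr5:120777660-120777829 (Oas3, minus), chr7:140955962-140956131 (Ifitm2, minus), chr19:34550524-34550693 (Ifit2, plus) and chr9:78443238-78443407 (Cgas, minus), and each is read from 5′ to 3′.
Ifit1: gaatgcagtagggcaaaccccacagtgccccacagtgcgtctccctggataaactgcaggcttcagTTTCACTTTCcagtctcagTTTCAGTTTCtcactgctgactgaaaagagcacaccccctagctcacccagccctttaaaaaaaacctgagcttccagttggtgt
Ifit3: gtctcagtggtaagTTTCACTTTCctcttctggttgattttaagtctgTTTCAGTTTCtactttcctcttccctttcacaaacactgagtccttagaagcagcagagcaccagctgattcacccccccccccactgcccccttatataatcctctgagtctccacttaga
Oas3: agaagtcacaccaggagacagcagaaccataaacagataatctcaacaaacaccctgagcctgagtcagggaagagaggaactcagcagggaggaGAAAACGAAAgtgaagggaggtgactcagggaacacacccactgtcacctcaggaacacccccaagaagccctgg
Ifitm2: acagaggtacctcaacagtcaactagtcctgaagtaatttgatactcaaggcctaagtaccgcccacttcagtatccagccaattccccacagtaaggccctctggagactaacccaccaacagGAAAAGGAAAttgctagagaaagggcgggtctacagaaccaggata
Ifit2: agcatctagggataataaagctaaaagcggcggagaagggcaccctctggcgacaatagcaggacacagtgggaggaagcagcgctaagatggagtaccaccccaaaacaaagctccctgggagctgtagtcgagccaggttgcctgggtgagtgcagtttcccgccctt
Cgas: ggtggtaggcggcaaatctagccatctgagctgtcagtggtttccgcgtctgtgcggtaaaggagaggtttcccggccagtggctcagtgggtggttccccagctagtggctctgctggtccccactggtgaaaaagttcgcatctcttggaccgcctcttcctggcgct
The first base of the core stood 104 and 85 bases before the start of Ifit1, 156 and 122 before that of Ifit3, 75 before that of Oas3 and 46 before that of Ifitm2. No core was found in the windows of Ifit2 and Cgas. Ifit1, Ifit2 and Ifit3 are neighbours on chromosome 19, and the 45 members lie on 15 chromosomes, with 9 of them on chromosome 11.

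Total counts per library were 43875429 to 78498230 in the conditioned-medium experiment, 46973008 to 72361685 in the culture experiment and 41542533 to 64872036 in the rescue experiment. Levels are given as CPM, counts divided by the TMM-scaled library size and not by gene length, and a gene is called changed at a Benjamini-Hochberg adjusted p under 0.05 in edgeR's quasi-likelihood test over all genes. Cxcl5 transcript went against its label in 3D: Cxcl5 stood at 65.5, 40.9 and 45.4 CPM under the 3D Cxcl5-/- label and at 28.5, 24.5 and 28.0 CPM in 3D WT (log2 fold change 0.91 ± 0.14 (SE), edgeR adjusted p = 0.000173). In the rescue experiment Cxcl5 was lower under the Cxcl5-/- label (36.6 and 40.2 against 64.2 and 67.7 CPM, -0.78 ± 0.14, adjusted p = 0.00107), and in 2D the difference did not pass (-0.47 ± 0.14, adjusted p = 0.0705). The study checked the knockout by immunoblot for CXCL5 protein, and whether the edit leaves the transcript was not tested. Under the Cxcl5-/- label in 3D, summed epithelial markers were lower and summed fibroblast markers higher than in WT in both experiments, as given below. Of the markers that define epithelial cells, Epcam was at most 0.552 and Cdh1 at most 0.609 CPM in any library, while Krt8 was 134 to 648 CPM. Of the 8 fibroblast markers Col3a1 was 216 to 1425, Pdgfrb 54.6 to 233 and Pdgfra 3.88 to 225 CPM, Col1a2 was at most 3.66 and Thy1 at most 0.596 CPM, and Dcn and Lum ranged from 0 to 196 and to 86.9 CPM. Of the 10 macrophage markers, 7 were at most 1.92 CPM in every library (Ptprc, Mrc1, Adgre1, Csf1r, Itgam, Fcer1g and Tyrobp), while Cd14 was 18.8 to 53.0, Lyz2 0.777 to 16.7 and Cd68 0.919 to 11.2 CPM.

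Growth in 3D was the condition in which the members differed most. All 45 members were called between 3D WT and 2D WT cells, 43 higher in 3D and 2 lower (Ifit2 and Cgas), and in none of them did the 2 groups overlap, as in 54.3% of all genes tested. Over all 21367 genes tested, 44.3% were called, 22.2% higher and 22% lower. The median log2 fold change was 3.64 over the members and 0.00199 over all genes, and 28 members rose over 8-fold. The median member stood at 1.80 to 2.06 CPM in the 2D WT libraries and at 28.2 to 29.9 CPM in the 3D WT libraries. Of the 45, 40 would have passed the filter on low counts in 2D WT alone, 38 of them called higher and 2 lower. Oas2, Oas3, Mx1, Gbp5 and Ifi44 would not have passed, so they were tested through their 3D libraries and had to differ, and their values are a description. The summed level of the 10 macrophage markers was 28.1 to 32.4 CPM in 2D WT and 42.7 to 47.1 in 3D WT, and that of the 7 epithelial markers was 538 to 588 and 839 to 1084 CPM. Krt8 (0.63), Krt18 (0.83) and Krt19 (6.77) were called higher and Krt7 (-1.82) lower. Of the 6 macrophage markers tested 5 were called higher in 3D, among them Cd68 (1.77 ± 0.24) and Lyz2 (1.62 ± 0.25). The 8 fibroblast markers summed to 795 to 844 CPM in 2D WT and 636 to 690 in 3D WT, with 3 called higher (Dcn 6.65, Lum 6.49 and Col1a1 3.04) and Col3a1 (-0.38) and Pdgfrb (-0.78) lower. Whether each of these markers would have passed the filter in 2D WT alone was not examined. The part of these markers in the result was not tested, and in bulk RNA fewer cells of a type and less RNA per cell cannot be told apart.

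**Figure D1:**
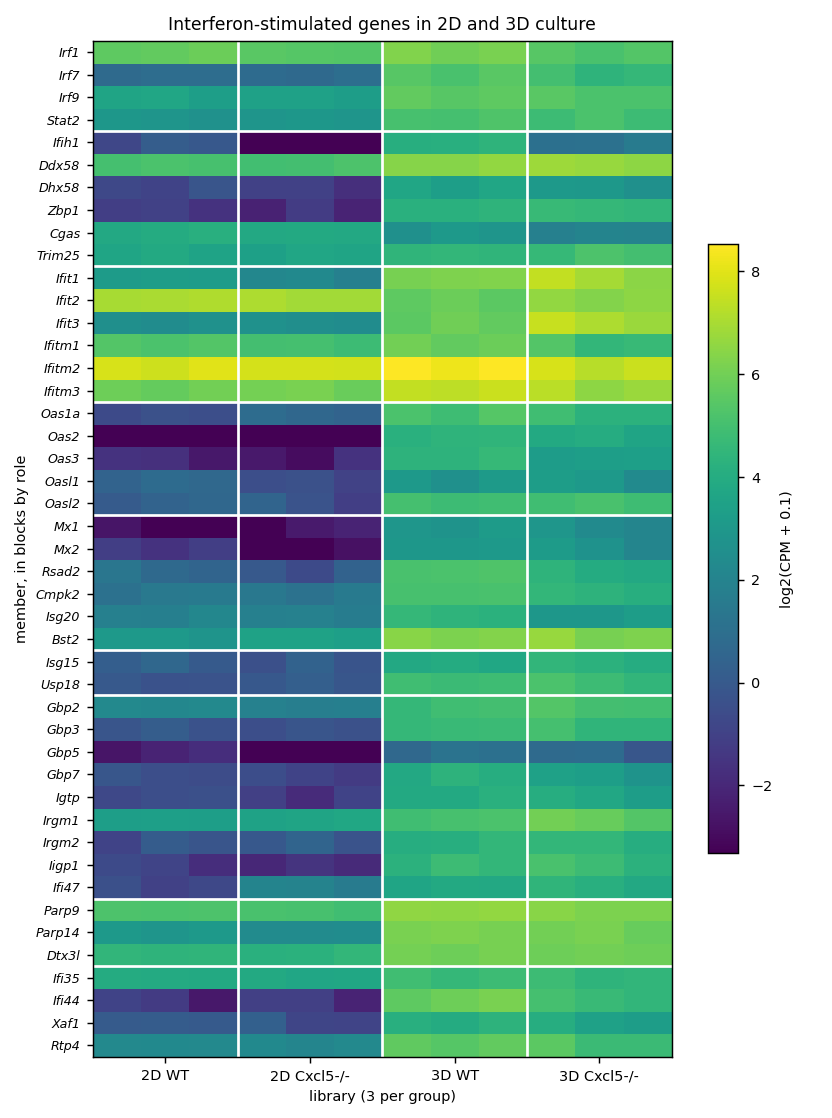
Level of each of the 45 members in the 12 libraries of the culture experiment, as a heat map of log2(CPM + 0.1), with members in rows by role and libraries in columns by group. Both 3D groups hold higher levels than both 2D groups for most rows, and the Ifit2 and Cgas rows run the other way.

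The transcription factors of the response rose by very different amounts. Irf7, the regulator that amplifies interferon production, was at 1.64, 1.80 and 1.81 CPM in 2D WT and at 43.1, 34.9 and 45.5 CPM in 3D WT (log2 fold change 4.55 ± 0.17, adjusted p = 4.9e-10). Irf9, the DNA-binding subunit of the complex on the response element, was at 12.02, 12.7 and 9.96 CPM in 2D and at 51.8, 43.2 and 48.2 CPM in 3D (2.05 ± 0.13). Its partner Stat2 was at 7.55, 7.15 and 6.26 CPM in 2D and at 33.9, 33.1 and 38.1 CPM in 3D (2.33 ± 0.12). Each 3D library of these 3 factors lay far above every 2D library. Irf1, an activator that responds to both interferon types, was already high in 2D at 48.3, 50.9 and 57.6 CPM and reached 77.9, 62.0 and 70.5 CPM in 3D (0.42 ± 0.10, adjusted p = 0.0045). That difference did not pass when libraries were scaled by their totals (0.20). Irf9 overlaps Rnf31 on its own strand, and reads in the shared exons cannot be told apart.

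The OAS family includes the enzymes that make the messenger that switches on RNase L. Of its 5 members, Oas1a, Oasl1 and Oasl2 would have passed the filter in 2D WT, and all 3 were called higher. Oas2 (chr5:120730333-120749853) had 0 counts in all 3 2D WT libraries and 18.1, 20.8 and 21.6 CPM in 3D WT, at least 424-fold higher against a floor of 3 counts in each 2D library. Oas3 was at 0.231, 0.216 and 0.0695 CPM in 2D and at 20.5, 20.2 and 24.3 CPM in 3D (7.0 ± 0.37), and Oas1a at 0.539, 0.676 and 0.626 CPM against 36.2, 28.9 and 42.2 CPM (5.85 ± 0.23). Oasl2 was at 0.944, 1.25 and 1.45 against 32.7, 28.2 and 29.9 CPM and Oasl1 at 1.29, 1.68 and 1.49 against 8.51, 6.17 and 8.63 CPM. Oas1a has close relatives beside it in the genome, so that counts may have been split among them.

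The other 6 antiviral effectors were called higher too, though Mx1 is one of the members that had to differ. Mx1, a GTPase that traps viral nucleocapsids, had 3 counts in all in 2D WT and 1161 in 3D WT, where it stood at 7.41, 6.82 and 8.98 CPM, a ratio of 503 with a 95% interval of 172 to 2445 that covers counting error only. Rsad2 (viperin), which makes a chain-terminating nucleotide, was at 2.39, 1.55 and 1.32 CPM in 2D and at 35.3, 36.7 and 38.9 CPM in 3D (4.41 ± 0.27). Its neighbour Cmpk2, a nucleotide kinase, rose from 2.06, 2.69 and 2.86 to 33.7, 34.0 and 34.6 CPM (3.74 ± 0.16). Ifi44, an interferon-induced gene of little known function, was at 0.424, 0.316 and 0.0695 CPM in 2D and at 48.6, 59.4 and 71.0 CPM in 3D (7.85 ± 0.38).

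All 9 guanylate-binding proteins and immunity-related GTPases, which attack the vacuoles of intracellular microbes, were called higher, with Gbp5 one of the members that had to differ. Gbp3 rose from 0.770, 1.02 and 0.695 to 23.9, 26.2 and 26.7 CPM (4.94 ± 0.20). Irgm1 rose least of them, from 10.1, 10.1 and 9.90 to 30.2, 33.4 and 35.8 CPM (1.72 ± 0.14). Isg15, the ubiquitin-like modifier, and Usp18, the protease that removes it, rose together (3.64 ± 0.23 and 5.20 ± 0.20). Gbp2, Gbp3, Gbp5 and Gbp7 are similar in sequence, and reads may have been split among them and their relatives.

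The IFIT and IFITM proteins and the nucleic acid sensors were mixed. Ifit1, which binds foreign RNA caps, rose from 8.92, 9.51 and 9.19 to 68.8, 75.0 and 77.5 CPM (3.00 ± 0.19), and Ifit3, its binding partner, from 5.95, 5.27 and 6.37 to 46.0, 63.0 and 51.9 CPM (3.19 ± 0.19). Ifit2, which lies beside them, did the reverse: it was at 126, 129 and 141 CPM in 2D and at 47.6, 57.6 and 46.1 CPM in 3D, and fell by 1.39 ± 0.10 on the log2 scale (adjusted p = 1.75e-07). Among the sensors Ifih1 (MDA5), which detects long double-stranded RNA, rose from 0.482, 1.02 and 0.862 to 17.1, 17.6 and 21.1 CPM (4.54 ± 0.27). Cgas, the cytosolic DNA sensor, fell from 14.2, 15.6 and 17.7 to 6.18, 8.08 and 7.18 CPM (-1.15 ± 0.12, adjusted p = 5.14e-06). Ifit1 and Ifit3 have near-identical copies in the mouse genome, which makes their counts less certain than that of Ifit2.

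Members with the response element core in their window had a median log2 fold change of 3.64 between 3D and 2D WT cells (n = 19, range 0.61 to 7.0), and those with a window but no core one of 2.21 (n = 16, range -1.39 to 7.85). Both members that fell were without it. Oas3 and Ifi44, which set the upper ends of these ranges, and Gbp5 are among the members that had to differ. The medians and ranges are thus a description, in which the groups overlap over most of their range, and no test was made.

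A rise was also measured in cells under the Cxcl5-/- label. Between 3D Cxcl5-/- and 2D Cxcl5-/- libraries 42 members were called, 40 higher and 2 lower, where 28.7% of all genes were called higher and 28.2% lower, and the median was 3.93 over the members and 0.11 over all genes. Of the 45, 36 would have passed the filter in 2D Cxcl5-/- alone, 31 of them called higher, 2 lower and 3 not called. The other 9 (Ifih1, Zbp1, Oas2, Oas3, Mx1, Mx2, Gbp5, Iigp1 and Ifi44) were tested through their 3D libraries and had to differ. The 42 were called in the same direction in both genotypes, in separate libraries, and they include these 9. The share of all genes called alike in both genotypes is not given here. Irf1, Ifitm1 and Ifitm2 were the members not called here, with log2 fold changes of -0.11, -0.07 and -0.18. Irf7 went from 1.69, 1.54 and 1.85 to 32.1, 21.2 and 24.1 CPM (3.93 ± 0.17), Irf9 from 11.1, 11.04 and 9.49 to 44.8, 36.0 and 35.5 CPM (1.88 ± 0.13) and Stat2 from 7.19, 7.64 and 7.27 to 28.3, 36.1 and 27.5 CPM (2.06 ± 0.12). These 3 factors thus stood higher in every 3D library than in any 2D library of both genotypes. Summed epithelial markers went from 445 to 482 CPM in 2D to 190 to 222 CPM in 3D, the reverse of WT cells, and fibroblast markers from 646 to 677 to 1213 to 1315 CPM. Macrophage markers summed to 48.8 to 49.6 CPM in 2D and 43.5 to 63.4 in 3D, and of 6 tested Cd68 (2.33), Lyz2 (1.12) and Ptprc, at 0 in 2D, were called higher and Cd14 (-0.28) lower. Ptprc was thus tested through other libraries, and its call is a description. The part of these markers was not tested. Of the members that had to differ, Oas2 was again at 0 in the 2D libraries and at 14.8, 16.3 and 12.2 CPM in 3D, at least 312-fold higher. Mx2, the second Mx GTPase, had 3 counts in all in 2D Cxcl5-/- and 1206 in 3D, a ratio of 419 with a 95% counting interval of 143 to 2036. Cgas fell from 14.2, 14.7 and 14.0 to 3.53, 3.92 and 3.86 CPM (-1.92 ± 0.13) and Ifit2 from 133, 117 and 119 to 98.9, 82.0 and 92.5 CPM (-0.43 ± 0.10, adjusted p = 0.00264).

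**Figure D2:**
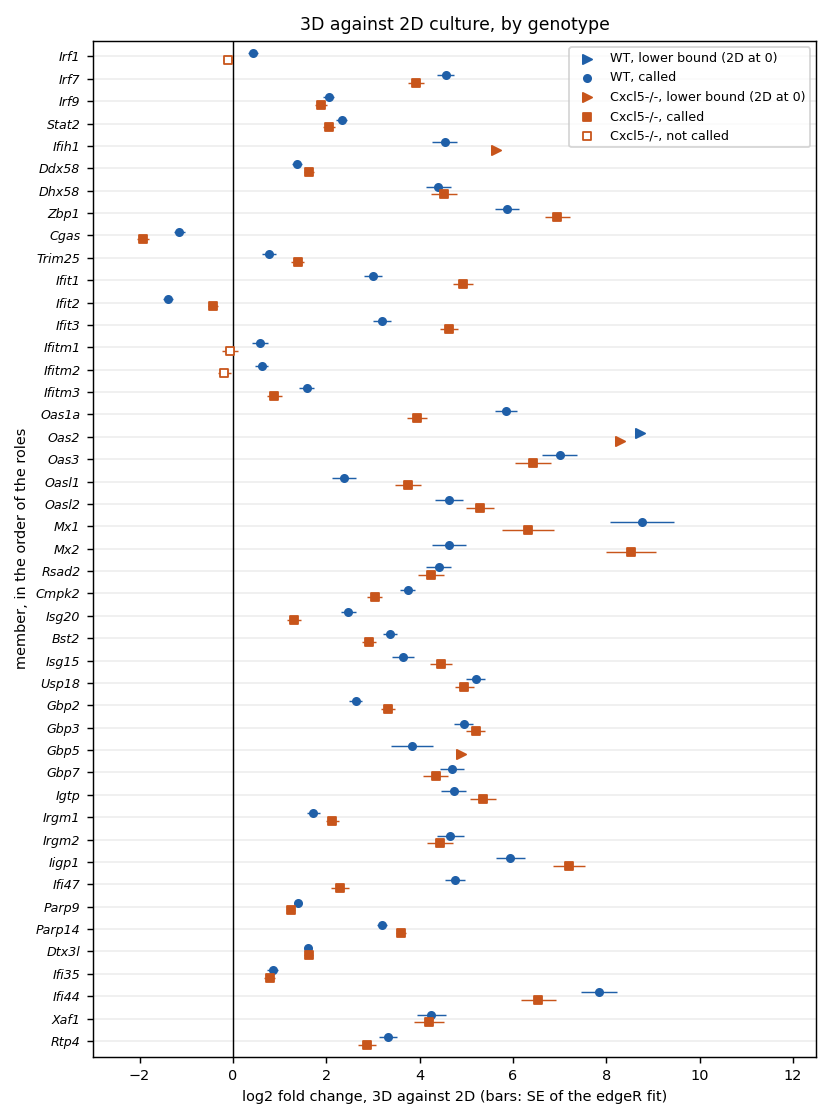
log2 fold change of each member between 3D and 2D culture, with circles for WT and squares for Cxcl5-/- cells, filled where called, bars giving the SE of the edgeR fit, and triangles giving lower bounds for members with 0 counts in the 2D group. Nearly all points lie to the right of 0 in both genotypes, Cgas and Ifit2 lie to the left in both, and the fitted values of Mx1 in WT and Mx2 in Cxcl5-/- rest on 3 counts in 2D.

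Between 2D Cxcl5-/- and 2D WT cells 9 members were called, 3 higher and 6 lower, with 7.03% of all genes called, 3.86% higher and 3.17% lower, and medians of -0.15 over the members and -0.015 over all genes. Summed macrophage markers were 48.8 to 49.6 CPM in 2D Cxcl5-/- and 28.1 to 32.4 in 2D WT, with Lyz2 (2.61) and Cd14 (0.59) called higher. Epithelial markers summed to 445 to 482 against 538 to 588 CPM and fibroblast markers to 646 to 677 against 795 to 844 CPM. Krt7 (1.35) was called higher, and Krt18 (-0.39) and Krt19, at 0 counts in 2D Cxcl5-/-, lower. Krt19 was thus tested through other libraries, and its call is a description. The part of these markers was not tested. None of the 4 transcription factors was among the called members: Irf1 was at 45.6, 42.5 and 40.5 CPM in 2D Cxcl5-/- cells (-0.29 ± 0.10, adjusted p = 0.142), and Irf7, Irf9 and Stat2 differed from 2D WT by -0.05, -0.13 and 0.08 on the log2 scale. Ifih1 (chr2:62595798-62646255, minus strand) had 0 counts in all 3 2D Cxcl5-/- libraries against 0.482, 1.02 and 0.862 CPM in 2D WT, at least 17.02-fold lower. Gbp5 was likewise at 0 in 2D Cxcl5-/- and at 0.0578, 0.129 and 0.195 CPM in 2D WT, at least 2.75-fold lower, and Mx2 had 3 counts against 61, a ratio of 20.5 with a 95% counting interval of 6.68 to 102. These 3 members are low in 2D in either genotype.

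Members with higher levels in 2D give the clearer values. Ifit1 was at 4.36, 4.79 and 3.45 CPM in 2D Cxcl5-/- against 8.92, 9.51 and 9.19 in 2D WT (-1.13 ± 0.19, adjusted p = 0.00222). Oasl1, an OAS-like protein that restrains Irf7 translation, was at 0.622, 0.660 and 0.401 against 1.29, 1.68 and 1.49 CPM (-1.41 ± 0.27), and Parp14, an ADP-ribosyl transferase, at 5.22, 5.15 and 5.38 against 8.09, 7.21 and 8.11 CPM (-0.57 ± 0.10). In the other direction the GTPase Ifi47 was at 3.96, 3.89 and 3.00 against 0.636, 0.388 and 0.501 CPM (2.85 ± 0.22, adjusted p = 2.08e-06), though it overlaps Olfr56 on its own strand. Oas1a was at 1.73, 1.48 and 1.25 against 0.539, 0.676 and 0.626 CPM (1.27 ± 0.23). Bst2 (tetherin), which holds budding virus at the cell surface, was at 11.5, 11.4 and 10.2 against 8.13, 8.13 and 6.86 CPM (0.52 ± 0.14, adjusted p = 0.0446), a call lost without any 1 of 5 of the 6 libraries, with values of 0.46 to 0.58 and adjusted p of 0.0719 to 0.156. Oas2 was at 0 in all 6 libraries.

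Between the libraries labelled 3D Cxcl5-/- and 3D WT 23 members were called, 5 higher and 18 lower, where 45% of all genes were called, 19.7% higher and 25.3% lower, so that the share of members called is near that of all genes. The median was -0.28 over the members (-0.44 without 3D Cxcl5-/- replicate 1) and -0.04 over all genes. Scaling by library totals in place of TMM raised the median of all genes to 0.35 and that of the members to 0.09, and the calls became 14 higher and 11 lower, where 35.9% of all genes were then called higher and 11.4% lower. Of these calls 16 were among the 23 with the same direction. The members stood 0.24 below the median of all genes with TMM and 0.26 below it with library totals. Summed epithelial markers were 190 to 222 CPM under the 3D Cxcl5-/- label and 839 to 1084 CPM in 3D WT, and summed fibroblast markers (8 genes) 1213 to 1315 and 636 to 690 CPM. Among the epithelial markers Krt8 (-1.95), Krt18 (-2.57) and Krt19 were called lower and Krt7 (2.11) higher. Among the fibroblast markers Col3a1 (0.73), Pdgfra (3.33) and Pdgfrb (1.22) were called higher, while Dcn (-3.74), Lum (-1.27) and Col1a2 (-1.06) were called lower. Of 6 macrophage markers tested Lyz2 was called, higher under the Cxcl5-/- label (2.11), and their sums were 43.5 to 63.4 and 42.7 to 47.1 CPM. The part of these markers in the result was not tested.

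The 3 IFIT genes were the members that rose most. Ifit3 was at 188, 133 and 109 CPM under the 3D Cxcl5-/- label against 46.0, 63.0 and 51.9 CPM in 3D WT (1.42 ± 0.17, adjusted p = 1.57e-05). Ifit2 was at 98.9, 82.0 and 92.5 against 47.6, 57.6 and 46.1 CPM (0.85 ± 0.10), and Ifit1 at 173, 122 and 89.7 against 68.8, 75.0 and 77.5 CPM (0.80 ± 0.18, adjusted p = 0.00245). These 3 genes were named among members without overlap, so every library under the Cxcl5-/- label was above every WT library. Of all genes tested, 54.4% had no overlap. Irgm1 (0.69 ± 0.13) and Trim25, the ubiquitin ligase that activates the sensor RIG-I (0.48 ± 0.14), were the other higher calls.

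Ifih1 fell most, from 17.1, 17.6 and 21.1 CPM in 3D WT to 1.96, 2.05 and 2.92 CPM (-3.01 ± 0.25, adjusted p = 1.88e-06). Isg20, an exonuclease that degrades RNA, was at 7.64, 7.71 and 9.57 against 23.4, 20.6 and 18.8 CPM (-1.33 ± 0.15), and Ifi44 at 32.8, 25.8 and 22.6 against 48.6, 59.4 and 71.0 CPM (-1.14 ± 0.26). All 3 were likewise named among members without overlap, so each library was below every WT library. All 3 IFITM genes, whose products block virus entry at membranes, were lower: Ifitm1 -0.98 ± 0.18, Ifitm2 -0.86 ± 0.14 and Ifitm3 -0.57 ± 0.16. Of the transcription factors, Irf1 was at 43.2, 35.2 and 40.7 against 77.9, 62.0 and 70.5 CPM (-0.82 ± 0.11, adjusted p = 2.88e-05) and Irf7 at 32.1, 21.2 and 24.1 against 43.1, 34.9 and 45.5 CPM (-0.67 ± 0.15, adjusted p = 0.00193). Irf9 (-0.30 ± 0.12) and Stat2 (-0.19 ± 0.12) did not pass, and their sign turned with library totals. Irf9 was called without 3D Cxcl5-/- replicate 1 (-0.44) or without 3D WT replicate 2 (-0.39). The other lower calls (Rsad2, Oas3, Cgas, Gbp7, Cmpk2, Dhx58, Oas1a, Rtp4, Oas2 and Parp9) had values of -1.13 to -0.29, and with library totals those of Dhx58, Gbp7, Ifitm3, Oas1a, Oas2, Parp9 and Rtp4 were lost, Parp9 with a change of sign. Oas1a and Rtp4 were the called members whose groups overlapped.

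Whether the effect of 3D culture differed between genotypes was tested with the interaction term, which shares its libraries with the comparisons above. It was called for 18 members, 10 with a larger and 8 with a smaller log2 fold change under the Cxcl5-/- label, where 11.1% of all genes were called larger and 16.1% smaller. Over the members the median difference was -0.14. Leaving out 1 library gave -0.27 (without 3D Cxcl5-/- replicate 1) to -0.017 (without 2D Cxcl5-/- replicate 1). Ifit1 rose by 3.00 in WT and by 4.93 under the Cxcl5-/- label (difference 1.93 ± 0.26, adjusted p = 0.000152), and Ifit3 by 3.19 and 4.63 (1.44 ± 0.25). Ifi47 rose by 4.76 in WT and by 2.30 under that label (-2.46 ± 0.28), Oas1a by 5.85 and 3.94 (-1.91 ± 0.29) and Isg20 by 2.47 and 1.30 (-1.17 ± 0.21). Ifi47 was higher under that label in 2D (2.85), and its difference between the genotypes in 3D was not called (0.39). Irf1 rose by 0.42 in WT and differed by -0.11 under that label (-0.54 ± 0.15, adjusted p = 0.0165), a call lost without 2D Cxcl5-/- replicate 1 or 3D Cxcl5-/- replicate 2 (-0.44 each) and with library totals (-0.17). The terms of Ifih1 (5.58), Gbp5 (5.53) and Mx2 (3.91) rest on 0 to 3 counts in 2D Cxcl5-/- cells and are fitted values with no fixed size. With library totals 19 members were called, 15 larger and 4 smaller, where the shares of all genes moved in the same way, to 21.5% larger and 6.36% smaller.

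The rescue experiment holds the same pair of genotype labels in 3D in separate libraries, with 2 in each. Between rescue 3D Cxcl5-/- and WT cells 17 members were called, 10 higher and 7 lower, where 17.6% of all genes were called higher and 24.3% lower, with medians of -0.12 over the members (-0.18 without WT replicate 1 and -0.05 without WT replicate 2 or Cxcl5-/- replicate 2) and -0.30 over all genes. With DESeq2 size factors the calls were 5 higher and 10 lower (15.2% and 27.3% of all genes), with library totals 8 and 6 (17.5% and 22.7% of all genes), and in a fit of these 2 groups alone 13 and 13 (23.7% and 38.8% of 26062 genes). Leaving out 1 of the 4 libraries left 9 to 12 calls: 10 without WT replicate 1, 12 without WT replicate 2, 9 without Cxcl5-/- replicate 1 and 10 without Cxcl5-/- replicate 2. Summed epithelial markers were 823 to 865 CPM in WT and 258 to 272 in Cxcl5-/- libraries, and summed fibroblast markers 294 to 312 and 1487 to 1522 CPM. Macrophage markers summed to 44.6 to 44.8 CPM in WT and 34.7 to 34.9 in Cxcl5-/- libraries, and of 8 tested Cd68 (0.63) was called higher, and Cd14 (-0.58), Ptprc, Mrc1 and Adgre1 lower. Endothelial markers summed to at most 3.50 CPM, in WT. The part of these markers was not tested.

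Ifit3 was at 92.4 and 84.4 CPM in rescue Cxcl5-/- libraries against 25.6 and 25.5 in WT (1.79 ± 0.14, adjusted p = 2.29e-06), and Ifit2 at 111 and 113 against 37.7 and 41.0 CPM (1.51 ± 0.09). Irgm1 was at 37.7 and 37.0 against 19.2 and 19.6 CPM (0.95 ± 0.16). Ifih1 was at 0.353 and 0.426 against 2.80 and 3.63 CPM (-3.04 ± 0.50, adjusted p = 0.000638), beside -3.01 ± 0.25 for Ifih1 in the culture experiment. Ifitm1 was at 23.3 and 28.5 against 77.3 and 58.0 CPM (-1.38 ± 0.25). Oas3 was at 2.30 and 1.48 against 5.14 and 5.28 CPM (-1.46 ± 0.37, adjusted p = 0.00929), not called without Cxcl5-/- replicate 2 (-1.17). No transcription factor passed. Irf7 was at 7.39 and 8.61 against 13.3 and 13.7 CPM (-0.75 ± 0.29, adjusted p = 0.0556), and Irf1, Irf9 and Stat2 differed by -0.12, 0.10 and -0.10 on the log2 scale.

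**Figure D3:**
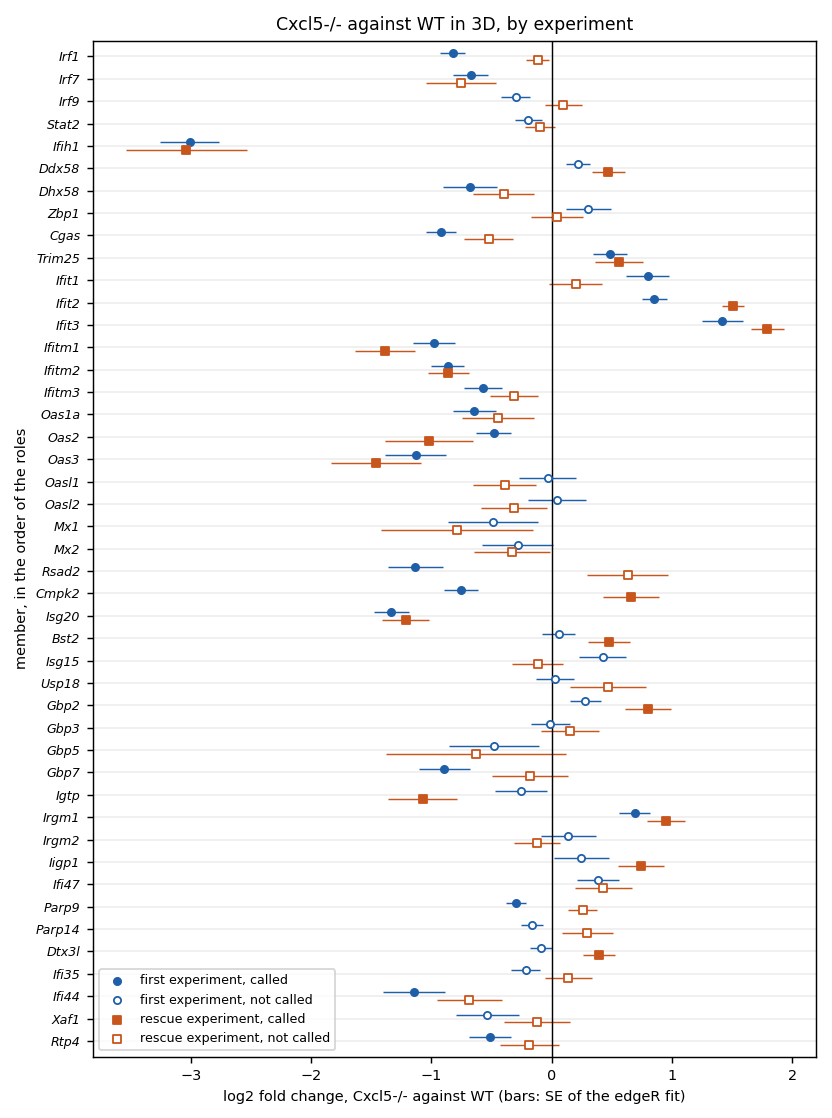
log2 fold change of each member between Cxcl5-/- and WT cells in 3D, with circles for the culture experiment (first experiment in the legend) and squares for the rescue experiment, filled where called, and bars giving the SE of the edgeR fit. Ifih1 lies furthest to the left and Ifit3 furthest to the right in both experiments.

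Since these libraries are separate, the calls of the 2 experiments can be set beside each other. Of the 23 members called in the culture experiment and the 17 called in the rescue experiment, 11 were the same. Ifih1, Ifitm1, Ifitm2, Oas2, Oas3 and Isg20 were lower in both, Trim25, Ifit2, Ifit3 and Irgm1 were higher in both, and Cmpk2 was lower in the first (-0.75 ± 0.14) and higher in the second (0.66 ± 0.23). The 11 make up 47.8% of the first list and 64.7% of the second, where the genes called in both made up 66.8% of either list over the 21058 genes tested in both, so the overlap among the members was not above that of all genes. In the rescue experiment the calls of Trim25 and Cmpk2 were lost with DESeq2 size factors, in the DESeq2 test and with no filter on low counts, and that of Trim25 also with library totals and with a stricter filter. The calls of Oas2 were lost with library totals and with no filter in both experiments. In neither experiment were 16 members called. Of the 21058 genes, 9568 were called in the culture experiment, 9576 in the rescue experiment and 6392 in both. The 16 are thus not read as a result about the members.

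A joint fit of both experiments tested the difference between the 2 genotype effects, and 5 members were called, all with a lower value in the culture experiment (2 without 3D Cxcl5-/- replicate 3 or any 1 of the 4 rescue libraries, 3 without 3D WT replicate 1 or 3, and 8 without 3D Cxcl5-/- replicate 1), where 8.99% of all genes were called, 5.59% lower and 3.39% higher. Rsad2 fell in the culture experiment (-1.13 ± 0.23) and had a value of 0.63 ± 0.33 in the rescue experiment that did not pass, a difference of -1.75 ± 0.23 (adjusted p = 0.00109). For Cmpk2 the difference was -1.40 ± 0.18 (adjusted p = 0.00105). Irf1 differed by -0.69 ± 0.17 (adjusted p = 0.0317), Ifit2 by -0.64 ± 0.16 (0.0347) and Parp9 by -0.54 ± 0.14 (0.0393). All 3 calls were lost with library totals and with no filter, and those of Ifit2 and Parp9 also with DESeq2 size factors and with the replicate number as a block. The call of Irf1 was lost without any of 7 of the 10 libraries, namely culture 3D WT replicates 1 and 3, culture 3D Cxcl5-/- replicate 3 and all 4 rescue libraries, at values of -0.77 to -0.61.

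Overexpression of Hif1a in Cxcl5-/- cells went with higher levels of most members. Compared with the rescue Cxcl5-/- group, 27 were called, 24 higher and 3 lower, where 20.5% of all genes were called higher and 15% lower, and the medians were 0.65 over the members and 0.16 over all genes. Hif1a itself was at 258, 296 and 243 CPM against 144 and 133 (0.94 ± 0.10), and at 304 and 324 CPM in rescue WT. Library totals gave 15 higher and 6 lower calls (15.1% and 19.5% of all genes) and a median of 0.41, and the calls were 16 without Cxcl5-/- replicate 2 and 17 without Cxcl5-/- replicate 1. Summed epithelial markers were 687 to 820 CPM and fibroblast markers 629 to 735 CPM in Hif1aOE Cxcl5-/- libraries, against 258 to 272 and 1487 to 1522 in Cxcl5-/- ones. Macrophage markers were 45.3 to 63.6 against 34.7 to 34.9 CPM, with Lyz2 (1.29) and Cd14 (0.60) called higher. Their part was not tested.

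All 5 OAS genes were called higher with Hif1a, though Oasl2 was not with library totals. Oas3 was at 6.96, 6.26 and 4.63 CPM against 2.30 and 1.48 (1.65 ± 0.35, adjusted p = 0.00314). Ifitm1 was at 81.3, 138 and 88.6 against 23.3 and 28.5 CPM (1.99 ± 0.24), and the GTPase Igtp, which overlaps Irgm2 on its own strand, at 10.8, 12.1 and 7.26 against 3.22 and 4.34 CPM (1.41 ± 0.27). Oas3, Ifitm1 and Igtp were named among members without overlap, so every Hif1aOE library was above both Cxcl5-/- libraries. Of all genes tested, 56.7% had no overlap. Of the transcription factors, Irf7 was at 15.1, 20.7 and 16.6 CPM (1.13 ± 0.27, adjusted p = 0.00679, lost without Cxcl5-/- replicate 1 at 1.04), Irf9 at 37.0, 30.5 and 28.3 CPM against 20.7 and 19.3 (0.67 ± 0.14), and Stat2 at 27.0, 23.0 and 24.2 against 18.8 and 17.6 CPM (0.44 ± 0.11, lost without Cxcl5-/- replicate 2 at 0.41 and with library totals at 0.22). Irf1 was at 34.1, 34.0 and 33.0 against 37.7 and 34.9 CPM and did not pass (-0.11 ± 0.09), though it was called lower with library totals (-0.33). The 3 lower calls were Iigp1 at 9.76, 7.48 and 9.54 against 18.2 and 17.5 CPM (-1.0 ± 0.17), Ifit2 at 63.1, 57.9 and 56.5 against 111 and 113 CPM (-0.92 ± 0.08) and Ifit3 at 64.7, 55.8 and 51.1 against 92.4 and 84.4 CPM (-0.63 ± 0.12).

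With Myc the direction was mixed. Compared with the same 2 Cxcl5-/- libraries 23 members were called, 8 higher and 15 lower, where 39.6% of all genes were called, 21.6% higher and 18% lower, with medians of -0.26 over the members (-0.46 without MycOE replicate 2) and 0.11 over all genes. Myc itself was at 548, 525 and 397 CPM against 22.3 and 20.0 (4.54 ± 0.16). Hif1a was called higher in MycOE libraries too, at 241, 271 and 262 CPM (0.90 ± 0.10). Between MycOE and Hif1aOE libraries Hif1a was not called (-0.04 ± 0.09). Library totals gave 5 higher and 23 lower calls (14.9% and 26% of all genes) and a median of -0.59, and the calls were 12 without Cxcl5-/- replicate 1 and 15 without Cxcl5-/- replicate 2. Summed fibroblast markers were 601 to 689 CPM with Myc against 1487 to 1522 CPM, macrophage markers 60.4 to 76.9 against 34.7 to 34.9 CPM and epithelial markers 244 to 287 against 258 to 272 CPM, and their part was not tested. Gbp2 fell most among members of at least 1 CPM, to 6.85, 11.4 and 8.20 from 27.8 and 29.6 CPM (-1.70 ± 0.17, adjusted p = 1.38e-05). Rsad2 was at 3.76, 8.68 and 4.41 against 13.8 and 16.6 CPM (-1.44 ± 0.30) and Mx2 at 0.952, 1.24 and 1.30 against 2.10 and 3.19 CPM (-1.18 ± 0.29, not called without Cxcl5-/- replicate 2 at -0.83). Ifitm2, which overlaps Gm45717 on its own strand, was at 426, 387 and 326 against 140 and 142 CPM (1.43 ± 0.16). Bst2 was at 101.2, 109 and 70.4 against 37.2 and 40.1 CPM (1.27 ± 0.16). Igtp was at 5.94, 8.85 and 6.19 against 3.22 and 4.34 CPM (0.89 ± 0.27, adjusted p = 0.0202), a call lost without Cxcl5-/- replicate 1 (0.70), without MycOE replicate 2 (0.69) and with library totals (0.55). Irf1 was the called transcription factor, at 64.1, 56.0 and 65.8 CPM (0.77 ± 0.09, adjusted p = 4.53e-05), whereas Irf7 (0.36 ± 0.27), Irf9 (0.11 ± 0.14) and Stat2 (-0.14 ± 0.11) did not pass, Stat2 being called lower with library totals (-0.48). Irf7 was at 11.02, 13.7 and 6.19 CPM, and without MycOE replicate 3 it was called (0.63).

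**Figure D4:**
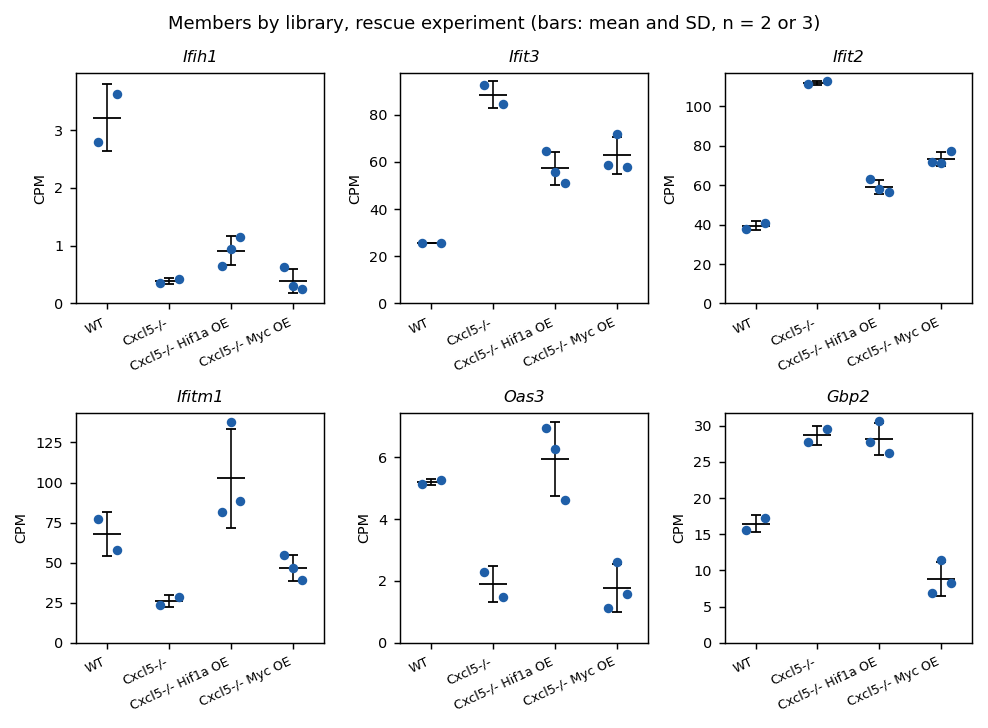
CPM of 6 members in each library of the rescue experiment by group, with points for libraries and bars for the mean and SD (n = 2 or 3). Ifih1 is low in all 3 Cxcl5-/- groups, Ifit2 and Ifit3 are highest in Cxcl5-/- libraries, Ifitm1 and Oas3 reach their highest library in Hif1aOE, and Gbp2 is lowest in MycOE libraries.

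Ifih1 remained below both WT libraries under either vector, at 0.647, 0.944 and 1.16 CPM with Hif1a and at 0.634, 0.304 and 0.247 CPM with Myc, where WT had 2.80 and 3.63 CPM. The log2 fold changes of Ifih1 against Cxcl5-/- cells were 1.23 ± 0.46 (adjusted p = 0.0597) and 0.01 ± 0.47, neither of which passed.

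A direct comparison of the 2 overexpressing groups gave 26 called members, 2 higher and 24 lower with Myc, where 9.54% of all genes were called higher and 9.73% lower. The median was -0.77 over the members and -0.015 over all genes. Library totals gave 1 higher and 27 lower, with 6.9% and 12.2% of all genes. Summed epithelial markers were 244 to 287 CPM with Myc and 687 to 820 CPM with Hif1a. Fibroblast sums were 601 to 689 and 629 to 735 CPM, with Pdgfra (4.69) and Pdgfrb (0.54) called higher with Myc and Dcn (-3.57), Lum (-1.52) and Col3a1 (-0.70) lower. Macrophage sums were 60.4 to 76.9 and 45.3 to 63.6 CPM, with Cd14 (0.67) called higher and Cd68 (-1.05) lower. The part of these markers was not tested. Irf1 was higher with Myc (0.88 ± 0.08, adjusted p = 1.99e-05), as was Ifit2 at 71.7, 71.0 and 77.2 against 63.1, 57.9 and 56.5 CPM (0.31 ± 0.07, not called with library totals at 0.20). Mx2 (-1.83 ± 0.27), Oas3 (-1.75 ± 0.30) and Gbp2 (-1.68 ± 0.16) were lower by the largest amounts among members of at least 1 CPM. The other 3 transcription factors were lower with Myc as well, Stat2 by -0.59 ± 0.10, Irf9 by -0.56 ± 0.13 and Irf7 by -0.77 ± 0.23 (adjusted p = 0.0412), the last lost without any 1 of 5 of the 6 libraries, at values of -0.86 to -0.50.

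In WT spheroids given macrophage-conditioned medium no member was called in any of the 3 comparisons, against 0.0156% of 19207 genes called for M1-CM against Ctrl, 0.0156% for M1-CM against M0-CM and 0% of genes for M0-CM against Ctrl (edgeR, with an absolute log2 fold change above 1 also required). At an unadjusted p under 0.05 in edgeR 15 members were higher in M1-CM than in Ctrl, where 3.05% of all genes were higher and 1.65% lower. For M1-CM against M0-CM 2 members were higher by that measure, where 1.61% of all genes were higher and 0.984% lower, and for M0-CM against Ctrl 2 members, where 2.15% were higher and 0.817% lower. None was lower. DESeq2 called 2, 1 and 0 members, and the share of all genes it called is not given here. Log2 fold changes were above 0 for 42, 41 and 41 of the 45 members, and their medians were 1.03, 0.55 and 0.38, beside 0.015, -0.007 and -0.0028 over all genes. Leaving out 1 library gave member medians of 0.66 (without M1-CM replicate 2) to 1.48 (without M1-CM replicate 1), of 0.13 (without M1-CM replicate 2) to 1.01 (without M1-CM replicate 1) and of 0.26 (without M0-CM replicate 3) to 0.71 (without M0-CM replicate 1).

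The spread between replicates was large and shared by the members. Replicate 1 held the lowest level of the 3 libraries for 38 members of the Ctrl group, 42 with M0-CM and 40 with M1-CM. Of 18208 genes with a mean of at least 10 counts, 35.5%, 38.4% and 26.9% were lowest there. In all 3 groups replicate 1 was lowest for 33 of the 45 members and for 3.17% of those genes. The mean of replicates 2 and 3 was, in the median member, 1.71 times replicate 1 without conditioned medium, 2.92 times with M0-CM and 5.17 times with M1-CM. Irf7 shows it: it was at 14.1, 25.2 and 29.4 CPM in the Ctrl libraries, at 16.3, 63.8 and 53.9 CPM with M0-CM and at 14.0, 99.8 and 82.9 CPM with M1-CM (M1-CM against Ctrl 1.52 ± 0.67, adjusted p = 0.965). Irf9 was at 28.7, 52.02 and 50.2, at 35.0, 78.7 and 75.2 and at 40.0, 70.8 and 90.3 CPM, and Stat2 at 26.9, 27.7 and 29.5, at 26.6, 40.4 and 42.2 and at 24.2, 100.7 and 57.0 CPM. Irf1 varied less, with 69.1, 73.5 and 79.7, 62.1, 81.7 and 83.3 and 69.5, 53.4 and 87.1 CPM, and its lowest M1-CM library was replicate 2. Without replicate 1 of all 3 groups the medians were 1.24, 0.66 and 0.53, and still no member was called.

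Ifitm1 was the member with the lowest p for M1-CM, where replicate 1 was its highest library. Ifitm1 was at 11.03, 24.2 and 19.4 CPM in the Ctrl libraries, at 17.6, 26.2 and 30.2 CPM with M0-CM and at 62.1, 52.5 and 57.9 CPM with M1-CM, with no overlap between M1-CM and either other group (1.66 ± 0.29 against Ctrl, adjusted p = 0.183, and 1.22 against M0-CM). Ifitm3 was at 77.8, 92.4 and 87.4, at 97.8, 151 and 170 and at 138, 228 and 210 CPM (1.16 against Ctrl, adjusted p = 0.386). DESeq2 called both against Ctrl and Ifitm1 against M0-CM. The study, which used DESeq2, also lists Ifitm1 as higher with M1-CM than with M0-CM. Oas3 had the largest value, with 3.28, 3.07 and 5.03, 4.45, 13.3 and 14.8 and 2.13, 47.5 and 26.4 CPM (2.74, adjusted p = 0.956), and replicate 1 of M1-CM lay below every Ctrl library. The lowest p-values for M0-CM against Ctrl were those of Ifitm3 (0.70), Isg20 (0.90) and Oas1a (1.84), and for M1-CM against M0-CM those of Ifitm1, Gbp5 (1.85) and Trim25 (0.99), with adjusted p of 0.989 to 1.

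**Figure D5:**
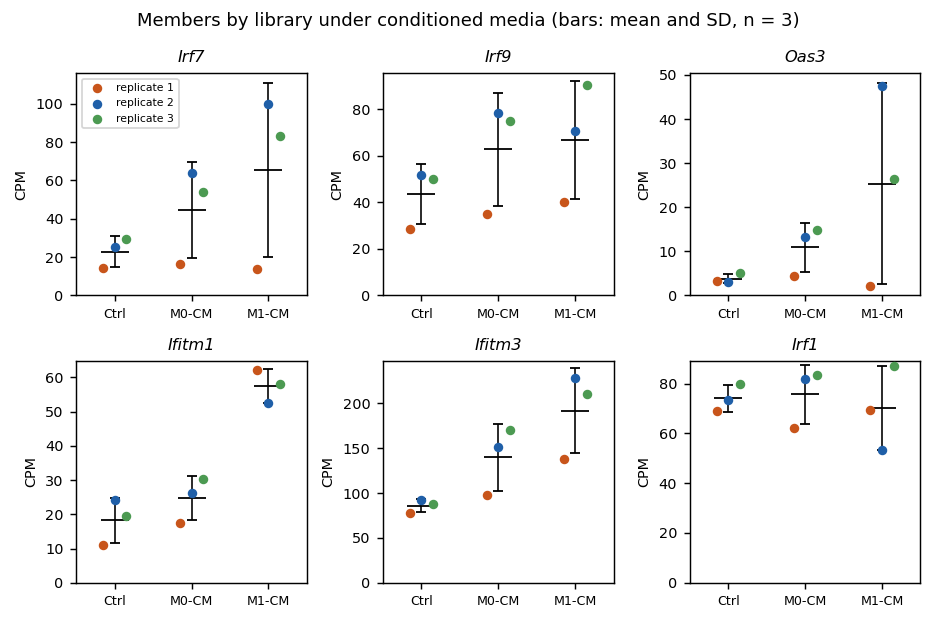
CPM of 6 members in each library of the conditioned-medium experiment by group, with colours for the replicate number and bars for the mean and SD (n = 3). Replicate 1 lies low in every group for Irf7, Irf9 and, in M1-CM, Oas3, while Ifitm1 in M1-CM lies above all other libraries.

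The interferons themselves were barely detected. All 17 ligand genes of the list were at most 1.40 CPM in every one of the 31 libraries, the highest being Ifnz, and Ifnb1 was at most 0.103 and Ifng at most 0.154 CPM. Between 3D and 2D WT cells 2 ligands were tested, and Ifnz was called, at 0.969, 0.911 and 0.922 CPM in 3D against 0.231, 0.173 and 0.181 (2.26 ± 0.37, adjusted p = 0.000212). Between 3D and 2D Cxcl5-/- cells Ifnk was the ligand called (3.41 ± 1.35, adjusted p = 0.0447). Ifnk was at 0 to 0.711 CPM over the 31 libraries. Whether it would have passed the filter in 2D alone was not examined, so its value is a description. Ifnz was called lower under the 3D Cxcl5-/- label than in 3D WT (-1.32 ± 0.35, adjusted p = 0.00763) and in the interaction (-1.72 ± 0.52, adjusted p = 0.0251), and higher with Hif1a (2.07 ± 0.54, adjusted p = 0.0107). RNA of the cells does not measure interferon in the medium. The receptors were expressed throughout, Ifnar1 at 61.1 to 100 CPM, Ifnar2 at 26.9 to 55.0, Ifngr1 at 19.5 to 56.3 and Ifngr2 at 29.9 to 49.2, except Ifnlr1 at no more than 0.283. Between 3D and 2D WT cells 2 of the 5 receptors tested were called, both higher (Ifngr1 0.40 and Ifnar2 0.23), a share near the 44.3% of all genes called there. The kinases Jak1 (0.40) and Jak2 (0.25) and the signal transducer Stat3 (0.86) were called higher as well. Of 16 genes of nucleic acid sensing outside the list that were tested, 8 were higher and 4 lower. Tlr3, the endosomal sensor of double-stranded RNA, rose from 2.12, 1.41 and 1.10 to 8.39, 9.67 and 11.7 CPM (2.70 ± 0.26). Tbk1, the kinase downstream of several sensors, was lower (-0.67). Of 6 negative regulators 2 were higher, among them Socs3 (0.66), and 2 lower. Under the Cxcl5-/- label in 3D, 1 of 5 receptors was called in the culture experiment (Ifngr1, -0.95 ± 0.11), and 5 of 6 negative regulators, 2 higher and 3 lower, where 45% of all genes were called. In the rescue experiment, where 41.9% of all genes were called, 4 of 5 receptors were called, with Ifnar1 (0.65), Il10rb (0.38) and Ifnar2 (0.35) higher and Ifngr1 (-0.42) lower, and 4 of 6 negative regulators, 2 higher and 2 lower.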

How the data were processed

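The authors deposited 3 tables of raw gene counts: StringTie counts of HISAT2 alignments to mm10 (GRCm38), from stranded total RNA libraries. The annotation release is not given in the sources used here. Of the rows, 1542 in the culture table (0.168% of its counts) and 310 in the rescue table (0.0456%) carry a gene identifier without a symbol, and they were kept. From the deposited counts, edgeR 4.0.16 (R 4.3.3) was run with TMM scaling, its default filter by group and quasi-likelihood tests over all groups of a table, with Benjamini-Hochberg adjustment over all genes tested (19207, 21367, 28730 and, for the joint fit, 27239). The SE is the absolute log2 fold change over the root of F. Tables were scaled separately, so levels are compared within a table. The members, roles and lists were chosen with earlier results of these data known. Values by library are given for Irf1, Irf7, Irf9 and Stat2, for up to 3 called members in each direction with the largest change, a mean of at least 1 CPM and no overlap, for the 3 lowest p-values where none was called, and for a few others chosen after their values were seen. Bounds use a floor of 3 counts in each library. The exact 95% binomial intervals and the floor cover counting error only. Alternatives were DESeq2 1.42.0, its size factors, library totals, dropping the filter, keeping genes with 10 counts or more in each sample, a log2 fold change limit of 1, only the groups compared, the replicate number as a block, and leaving out each library. A rescue group of 2 is then left with 1 library, and the spread comes from the other groups. Gene positions are those of GENCODE vM21 and promoter windows those of RefSeq (GRCm38.p6). On their own strand 8 members overlap another gene there (Irf9, Ifitm2, Gbp7, Igtp, Irgm2, Ifi47, Parp14 and Rtp4), which makes their counts less certain. The scripts were tested on simulated data. A gene of the pathway is not reported here.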

Additional observations from a re-analysis of the deposited data

Results flagged for a closer look

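The results below were picked out from tests of the difference between 2 effects that passed. For 3D culture 18 members passed, where 11.1% of all genes were larger and 16.1% smaller. Those given are Irf1 and the 3 with the largest difference in each direction among members of at least 1 CPM. For the effect of 3D culture, the difference between cells under the Cxcl5-/- label and WT cells was 1.93 for Ifit1, -2.46 for Ifi47, -1.91 for Oas1a, -1.17 for Isg20 and -0.54 for Irf1 on the log2 scale. Ifi47 differed between the genotypes in 2D (2.85) and was not called between them in 3D (0.39). The fitted difference was 5.58 for Ifih1 and 3.91 for Mx2, where 2D Cxcl5-/- cells had 0 and 3 counts in all. Ifih1 and Mx2 had to differ between 3D and 2D Cxcl5-/- cells, so their values have no fixed size and are a description. For the effect of the Cxcl5-/- label in 3D, the difference between the culture and the rescue experiment was -1.75 for Rsad2, -1.40 for Cmpk2, -0.69 for Irf1, -0.64 for Ifit2 and -0.54 for Parp9. The libraries labelled 3D Cxcl5-/- in the culture experiment held more Cxcl5 transcript than 3D WT, and those of the rescue experiment less, and the part of this in the differences was not tested.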

How the results depend on the processing

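Over the named members' alternatives, 1447 kept direction and side of the threshold, 35 lost the call, 14 gained it and 17 changed sign. DESeq2 called 2 members for M1-CM against Ctrl and 1 against M0-CM, without a share of all genes to set beside them. With library totals the member medians were 3.43 (3D against 2D WT), 0.089 (3D Cxcl5-/- against 3D WT), 0.23 (interaction, -0.14 with TMM), 0.41 (Hif1aOE) and -0.59 (MycOE), and with at least 10 counts in every sample 3.22 (3D against 2D WT) and 3.16 (3D against 2D Cxcl5-/-), a filter that removes members low in 2D. A log2 fold change limit of 1 left 6 calls (3D Cxcl5-/- against 3D WT), 9 (interaction), 8 (rescue Cxcl5-/- against WT), 11 (Hif1aOE), 6 (MycOE), 14 (MycOE against Hif1aOE) and 2 (between experiments). The share of all genes called at this limit is not given here, so these counts are not read against a background. Fitting only the groups compared gave 26 calls for rescue Cxcl5-/- against WT. Between experiments, DESeq2 size factors gave 3 calls, library totals 3 and no filter 2. The cause of these changes was not tested.

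With library totals Irf1 was -0.038 for M0-CM against Ctrl and 0.033 for 3D against 2D Cxcl5-/- (0.011 with at least 10 counts), Irf9 0.081 and Stat2 0.21 for 3D Cxcl5-/- against 3D WT, and Irf9 -0.23 for MycOE. Irf9 was -0.0032 in the rescue Cxcl5-/- against WT comparison with DESeq2 and with its size factors. None of these values was called in any of these settings.

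Leaving out 1 library gave medians of 3.53 to 3.80 for 3D against 2D WT. It gave 9 to 12 calls for rescue Cxcl5-/- against WT, 16 to 27 for Hif1aOE, 12 to 24 for MycOE and 2 to 8 between experiments (2 without 3D Cxcl5-/- replicate 3 or any 1 of the 4 rescue libraries, 8 without 3D Cxcl5-/- replicate 1). Irf1 ranged from -0.27 to 0.080 for M1-CM against Ctrl, from -0.30 to 0.052 against M0-CM and from -0.044 to 0.16 for M0-CM against Ctrl, Irf9 from -0.20 to 0.35 for M1-CM against M0-CM, and Irf7 from -0.086 to 0.031 for 2D Cxcl5-/- against 2D WT.

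Over all genes, deviations of same-numbered samples correlated above 0.1 in 3 of 9 pairs (conditioned medium), 1 of 18 (culture) and 0 of 13 (rescue), so the numbers were not taken as pairing the samples. Over the members alone it was 8 of 9, 4 of 18 and 4 of 13, and in the conditioned medium, where replicate 1 was low for most members, the block still gave no call. With the replicate number as a block the calls were kept except Parp14 in the interaction, Trim25 in MycOE, and Ifit2 and Parp9 between experiments, where 3 calls remained. It added 2 calls (3D Cxcl5-/- against 3D WT), 4 (interaction), 3 (rescue Cxcl5-/- against WT), 3 (Hif1aOE), 1 (MycOE) and 4 (MycOE against Hif1aOE).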
